A study of Mus musculus with 8 samples.

Results

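The nuclear-encoded oxidative phosphorylation genes are the genes in the cell nucleus for the protein subunits of the 5 respiratory complexes of mitochondria. They were chosen by symbol (Ndufa, Ndufb, Ndufc, Ndufs and Ndufv for complex I; Sdha to Sdhd for complex II; the Uqcr genes and Cyc1 for complex III; Cox4 to Cox8 for complex IV; Atp5 for complex V), which gave 81 of the 32543 genes in the deposited table. Complex I had 36 of them, complex II 4, complex III 9, complex IV 15 and complex V 17. RNA was sequenced from amygdalar intercalated cells, small clusters of GABAergic neurons around the basolateral amygdala, sorted by their GFP from mouse embryos at E16.5 (embryonic day) on an outbred background. The 4 control pools were Tshz1 GFP/+ and the 4 knockout pools Tshz1 GFP/RA, so every embryo carried 1 GFP allele of Tshz1, a zinc finger transcription factor, and the GFP used for the sort comes from that allele. The labels do not say how the RA allele was made. Tissue from several embryos of 1 genotype was pooled before the sort, so a library stands for a pool and not for an animal. Triplicates are mentioned in the series' design text, but 4 samples of each genotype are labelled. A control and a knockout library share each of 4 title prefixes (NX, NY, QT and RM), whose meaning the labels do not give.

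In oxidative phosphorylation, complex I takes electrons from NADH and complex II takes them from succinate. Complex III passes them through cytochrome c to complex IV, which reduces oxygen. Complexes I, III and IV pump protons across the inner mitochondrial membrane, and complex V, the ATP synthase, lets them flow back to make ATP, the main energy supply of neurons. All complexes but complex II also hold subunits encoded in mitochondrial DNA, which are not among the genes described here. The nuclear subunit genes are known targets of the transcription factors NRF1, GABP (an ETS family factor, also called NRF2) and YY1, and of the coactivator PGC-1α.

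Short sequences that these factors are known to bind were searched for in the promoters. RefSeq promoter windows (GRCm38.p6, 250 bases before to 50 after the annotated start) matched 68 of the 81 genes, with 74 windows. Searched on both strands, the NRF1 sequence (GCGCA, any base, then GCGC) was in 18 windows (24.3%), against 9.87% of 12936 windows of the genes tested below and 4.60% of all 32851 windows. The YY1 sequence AAGATGGCG was in 9 windows (12.2%, against 2.92% and 1.40%). The ETS sequence CCGGAAG was in 16 (21.6%, against 17.1% and 8.86%). At least 1 of these 3 was in 37 of the 74 windows, against 26.9% of the windows of tested genes. TATAAA, the core of the TATA box, was in 8 (10.8%, against 7.10% and 13.6%), and none of the 4 sequences contains another. The median GC content was 57.5% for the group, 61.0% for tested genes and 52.7% for all windows. A match in these letters describes the window and does not show binding.

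The 5 sequences below are the 120 bases before the RefSeq start for genes whose match lies there and whose stretch has at most 30 bases inside annotated exons, and they show how the matches sit in the promoter of a small subunit gene. All 5 are on the minus strand, are printed 5′ to 3′ along the gene and have the match in capitals, as written or as its reverse complement. Cox6a1 (chr5:115348959-115349078) has an NRF1 match starting 117 bases before the start and an ETS match starting 16 bases before it. That ETS match lies within the 23 bases of the stretch that exons of the GENCODE annotation cover, where Cox6a1 begins at chr5:115348981. Ndufs5 (chr4:123718187-123718306) has an NRF1 match at 98 bases, and Atp5e (chr2:174464102-174464221) an ETS match at 102 bases. Uqcr11 (chr10:80406822-80406941) and Uqcrh (chr4:116075071-116075190) have ETS matches at 66 and 10 bases.
Cox6a1: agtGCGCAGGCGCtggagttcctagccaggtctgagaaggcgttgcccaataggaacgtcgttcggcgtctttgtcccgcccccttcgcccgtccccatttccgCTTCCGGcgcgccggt
Ndufs5: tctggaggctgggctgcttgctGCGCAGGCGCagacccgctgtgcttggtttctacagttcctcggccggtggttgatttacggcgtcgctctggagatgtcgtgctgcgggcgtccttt
Atp5e: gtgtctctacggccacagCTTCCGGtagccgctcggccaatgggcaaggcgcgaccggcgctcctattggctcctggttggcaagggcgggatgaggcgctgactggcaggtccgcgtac
Uqcr11: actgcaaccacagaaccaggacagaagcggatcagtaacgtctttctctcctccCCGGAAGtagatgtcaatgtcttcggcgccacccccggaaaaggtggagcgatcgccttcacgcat
Uqcrh: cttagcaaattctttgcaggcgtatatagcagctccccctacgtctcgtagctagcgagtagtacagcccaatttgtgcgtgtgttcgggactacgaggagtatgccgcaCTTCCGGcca

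Tshz1, the disrupted gene, stood at 381 ± 115 CPM (control) and 79.0 ± 29.4 CPM (knockout; SD, n = 4 each), with no overlap and a log2 fold change of -2.27 (SE 0.30; adjusted p = 0.0388 by edgeR's quasi-likelihood method, with Benjamini-Hochberg correction over 14157 genes). The fold change ran from -2.55 to -2.11 over the 20 alternatives, and the call was lost in 9 of them: with log2 TPM plus 0.1, without control NX, QT or RM, without knockout NY, QT or RM, without both RM libraries, and without control NX and knockout QT. Libraries held between 5785612 and 14535867 expected counts. CPM here divides each count by the TMM-corrected size of its library. The 12 listed markers of intercalated cells were all tested and summed to between 2820 and 5326 CPM. Most of that sum came from Meis2 and Gad2 (control means 1456 and 1370 CPM), while Drd1 and Oprm1 had 8.84 and 5.09 CPM. Markers of pallial glutamatergic neurons summed to between 42.7 and 527 CPM, of progenitors and the cell cycle to between 155 and 1156 CPM, and of glia to between 17.8 and 119 CPM. Microglia markers summed to between 8.42 and 134 CPM, vascular ones to between 1.42 and 52.9 CPM and erythroid ones to between 0.764 and 276 CPM. The control NX library was lowest for the pallial, progenitor, glial, microglial and vascular sums and highest for the intercalated one.

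The subunit genes were among the more abundant transcripts of these neurons. The filter on low counts kept 75 of the 81, and their median level was 120.3 TPM (a level per transcript length, scaled to 1 total in all libraries), against 12.3 TPM for all 14157 tested genes. Of the 75, 73 lay above that median and 49 in the highest 10%. By complex, the median level was 247 TPM for complex IV, 176 for complex V, 108 for complex III, 74.1 for complex I and 64.5 for complex II. The range within the group ran from 4.72 TPM (Atp5sl) to 1021 TPM (Atp5b, the catalytic beta subunit of the ATP synthase). Next came Cox7c (933 TPM) and Cox6a1 (549.6 TPM), small structural subunits of cytochrome oxidase. Atp5s and Atp5sl, the lowest at 5.96 and 4.72 TPM, carry Atp5 symbols but are not structural subunits of the ATP synthase. A few rows with database-style names took much of the TPM total, which lowers the TPM of all other genes by different amounts in different libraries. The 5 fullest held from 27.6% (knockout NX) to 63.7% (knockout RM) of TPM, so TPM is used here to compare genes over the same 8 libraries and CPM to compare genotypes. Levels of very short genes are less certain, since TPM divides by an effective length. That length ran from 77.7 to 167 bases across libraries for Ndufa3, a complex I gene with a transcript of 349 bases, but from 1580 to 1692 bases for Atp5b.

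**Figure D1:**
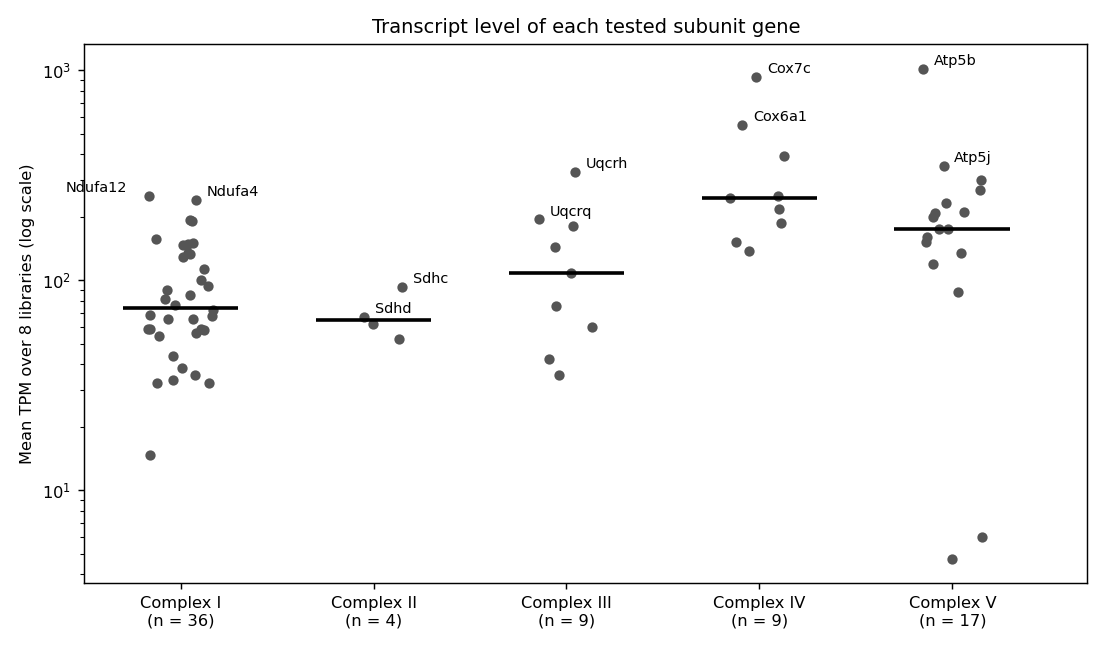
Each point is 1 of the 75 tested genes, at its mean TPM over 8 libraries on a log scale, by complex, and black lines are medians. Complex IV had the highest median (247 TPM) and complex II the lowest (64.5 TPM), and the 2 most abundant genes of each complex are named.

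The 6 genes below the filter were all complex IV genes for subunit forms known from other tissues, such as muscle and testis. Cox6a2 and Cox7a1, the heart and muscle forms, had 2 counts each over all 8 libraries. Cox6b2 and Cox7b2, known from testis, had 7 and 2 counts. Cox8b, a muscle form, and Cox8c, a testis form, had 0 counts, below a floor of 3 counts per library (0.206 to 0.519 CPM). The ubiquitous form Cox8a stood at 218 TPM, at least 18.5-fold higher than the floor of Cox8b and at least 32.9-fold higher than that of Cox8c in every library. The ubiquitous Cox6a1, Cox6b1, Cox7a2 and Cox7b stood at 549.6, 389.6, 138 and 152 TPM. The 10 listed muscle markers summed to between 2.29 and 6.17 CPM, with Ckm, Tnnt3, Myl1 and Actc1 at 0.

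Between genotypes, none of the 75 tested genes passed the test over all genes (adjusted p = 1.00 for each by edgeR's quasi-likelihood method), against 5 of 14157 called (0.0353%; 0.0283% lower and 0.00706% higher). At an unadjusted p under 0.05, edgeR had 1 gene lower (Ndufa5) and 0 higher, against 3.62% of all tested genes (1.91% lower and 1.7% higher). With the title prefix as a block in the fit it was 5 genes, all lower, against 3.5% of all tested genes lower, and again 0 passed over all genes (0.198% overall). DESeq2 also called 0 of the 75 members to which it gave an adjusted p, against 0.249% of the 16094 genes with one, with Ndufa5 again the one gene under an unadjusted 0.05. The fitted change was downward for 57 genes and upward for 18 (76% downward, against 50.6% of all tested genes). The median log2 fold change was -0.23, against -0.01 for all tested genes, and single values ran from -0.82 to 0.27 with a median SE of 0.36. In 10 genes the knockout library was the lower one in 4 of 4 prefixes (13.3%, against 8.48% of all tested genes), a count that sets libraries of 1 prefix side by side without the labels saying that they are paired. Atp5s was the one gene whose genotypes did not overlap, against 2.58% of tested genes. The 95% interval excluded a 2-fold lower level for 43 genes and a 2-fold higher level for 68, and lay within 2-fold both ways for 38. In sorted pools, fewer cells of a type and less RNA per cell cannot be told apart.

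The median changed with single libraries. Without the control NX library it was -0.04 (44 of 75 genes downward), and without both NX libraries -0.03 (40 of 75). Without the control NX and knockout QT libraries it was 0.08, with 26 of 75 downward. Control NX had the highest group sum of the controls (4768 CPM) and knockout QT the lowest of the knockouts (2753 CPM). Leaving out both therefore favours a higher median by the choice itself, and the turn of sign does not test the direction. Without the knockout NY library it was -0.47, with 70 of 75 downward. Knockout NY had the highest group sum of the knockouts (4765 CPM), so leaving it out favours a lower median. In that fit 8 of the 75 had an unadjusted p under 0.05 by edgeR, all lower, against 597 of 14561 tested genes in either direction. Again 0 of the 75 passed over all genes.

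Marker sums also differed between the genotypes. Progenitor and cell cycle markers summed to 155, 530.0, 827 and 475 CPM in the NX, NY, QT and RM controls, and 202, 1156, 1015 and 988 CPM in the knockouts in the same order, higher in 4 of 4 prefixes, with 6 of 9 tested genes fitted higher (median log2 fold change 0.56). Intercalated cell markers summed to 5326, 3111, 4038 and 4329 CPM in the controls and 3543, 2820, 3756 and 3083 CPM in the knockouts, lower in 4 of 4 prefixes, with 10 of 12 fitted lower (median -0.29). That list holds Tshz1. Leaving it out, the QT control was below the QT knockout (3582 and 3678 CPM), and the other 3 prefixes still had the knockout lower. Microglia markers had all 8 tested genes fitted lower (median -1.05), and their sums were lower in 3 of 4 prefixes, from 8.42 to 134 CPM in controls and 12.6 to 57.0 CPM in knockouts. Pallial sums were higher in 3 of 4 prefixes and glial, vascular and erythroid sums in 2 of 4. Of all these markers Tshz1 alone passed the test over all genes. The part of these cell types in the downward median of the subunit genes was not tested.

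**Figure D2:**
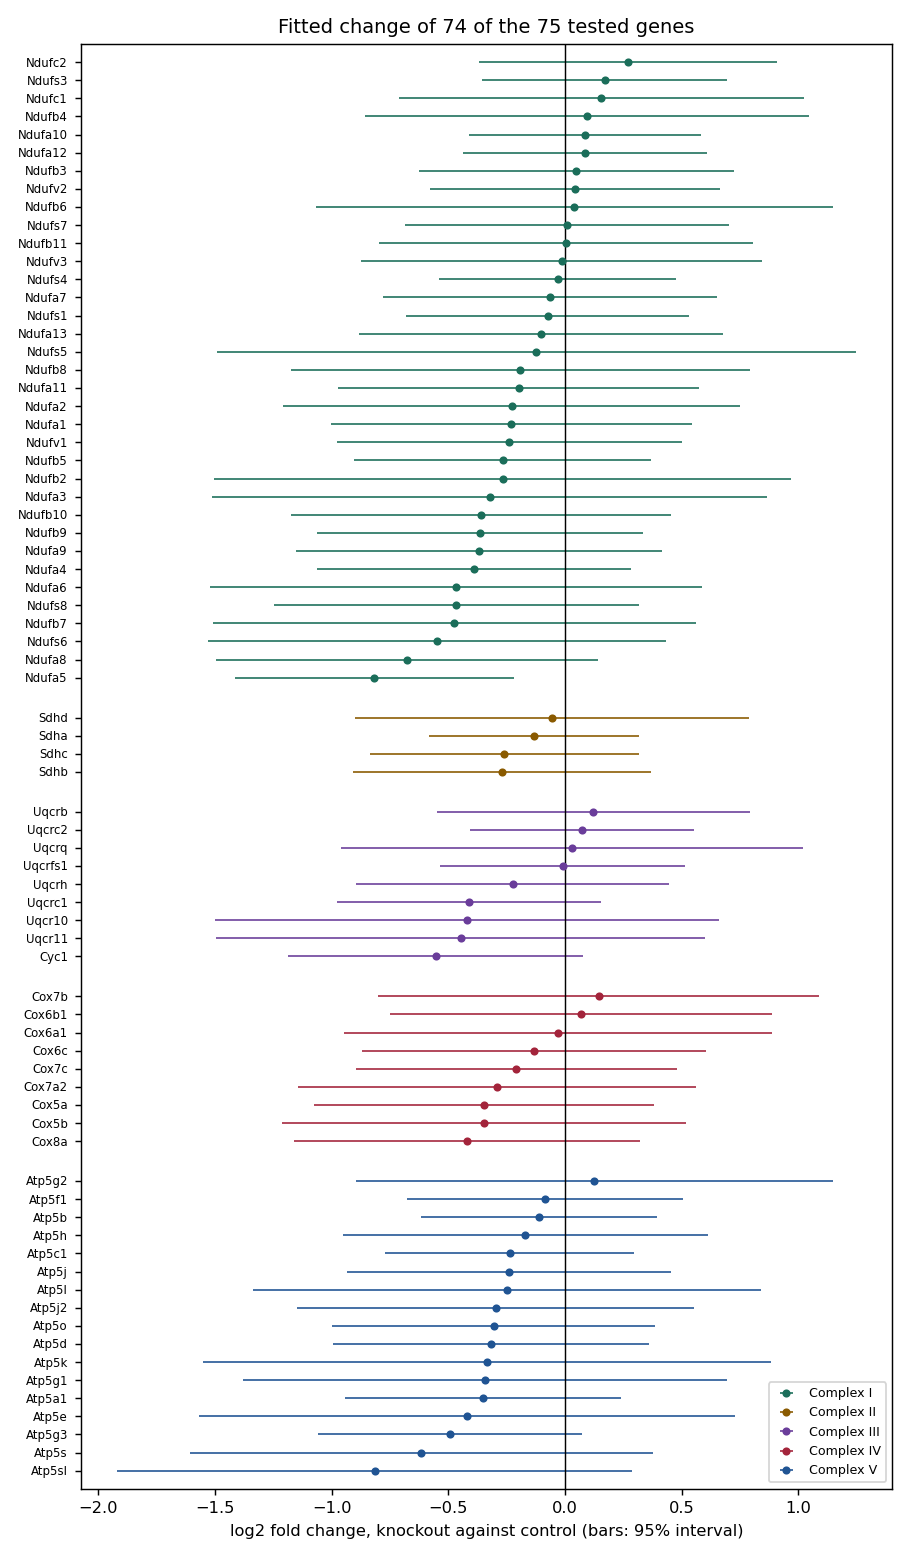
Points are fitted log2 fold changes of 74 of the 75 tested genes, knockout against control, and bars are 95% intervals, grouped and coloured by complex. Of those shown, the interval of Ndufa5 alone lies off 0, and in complex V 16 of 17 points lie below 0.

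Complex I, the entry point for electrons from NADH, had 24 of 36 genes fitted lower, with a median log2 fold change of -0.16. That median ran from -0.45 without knockout NY to 0.11 without control NX and knockout QT, and was also above 0 without control NY (0.0069) and without both NX libraries (0.036). Ndufa5, an accessory subunit of the arm that faces the matrix (chr6:24518666-24528013, minus strand, GRCm38), stood at 43.7, 31.5, 29.7 and 20.9 CPM in the NX, NY, QT and RM controls, and 15.4, 21.2, 15.5 and 19.4 CPM in the knockouts in the same order. Control NX was the highest library, and the genotypes overlapped because knockout NY lay just above control RM. The means were 31.4 ± 9.39 CPM (control) and 17.9 ± 2.93 CPM (knockout; SD, n = 4 each), with a log2 fold change of -0.82 (SE 0.28, 95% interval -1.41 to -0.22). Its unadjusted p was 0.0114 and its adjusted p 1.00 by edgeR, and it was lower in 4 of 4 prefixes. Its log2 fold change ran from -0.997 to -0.544 over the 20 alternatives. Its unadjusted p in edgeR was 0.0926 without both NX libraries and 0.0929 without control NX and knockout QT, and under 0.05 in the other 18 alternatives, 3 of them fitted by DESeq2 or limma.

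Ndufa8, another accessory subunit, stood at 19.6, 22.1, 16.4 and 20.1 CPM in the NX, NY, QT and RM controls, and 17.6, 17.4, 5.47 and 7.97 CPM in the knockouts in the same order. The 2 low libraries were knockout QT and knockout RM, while knockout NX and NY lay inside the control range (log2 fold change -0.68, SE 0.38). The most abundant complex I gene was Ndufa12 (253 TPM), an accessory subunit, at 43.0 ± 6.51 CPM (control) and 45.7 ± 13.4 CPM (knockout; log2 fold change 0.08, SE 0.24). Ndufa4, named as a complex I gene but known to be part of complex IV, followed at 241 TPM, with 38.1 ± 10.9 CPM (control) and 29.1 ± 11.4 CPM (knockout; -0.39, SE 0.31). Ndufc2, an accessory subunit of the membrane arm, had the smallest p among those fitted higher, at 47.9, 42.4, 21.7 and 22.3 CPM in the NX, NY, QT and RM controls, and 31.1, 45.6, 40.9 and 45.2 CPM in the knockouts in the same order. Its QT and RM knockout libraries lay near the NX and NY libraries of the control, which gave a log2 fold change of 0.27 (SE 0.29). Core subunits, among them those that carry the flavin and iron-sulfur centres, lay on both sides of 0. Log2 fold changes were -0.47 for Ndufs8, -0.24 for Ndufv1, -0.07 for Ndufs1, 0.01 for Ndufs7, 0.04 for Ndufv2 and 0.17 for Ndufs3, with SE from 0.24 to 0.36. Ndufs5, whose promoter is printed above, had 0.760 CPM in knockout QT and between 9.32 and 25.1 CPM elsewhere, and its counts held fractions in 4 libraries, where the authors' program shared fragments with other loci. Of the other accessory subunits, those fitted lowest were Ndufs6 (-0.55, SE 0.45), Ndufb7 (-0.47, SE 0.48) and Ndufa6 (-0.47, SE 0.49), and those fitted highest after Ndufc2 were Ndufc1 (0.16, SE 0.40) and Ndufb4 (0.09, SE 0.44). Ndufa9, at 30.7, 44.6, 42.5 and 35.7 CPM in the NX, NY, QT and RM controls, and 50.9, 34.7, 13.1 and 19.6 CPM in the knockouts in the same order, went opposite ways in NX and QT (-0.37, SE 0.36).

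Complex II, succinate dehydrogenase, is also an enzyme of the citric acid cycle and has its 4 subunits here. All 4 were fitted lower, with a median of -0.20 on the log2 scale (-0.33 without knockout NY and -0.095 without control NY), and none reached an unadjusted p under 0.05 in edgeR (smallest 0.348, Sdhc). Sdha, the flavoprotein that oxidises succinate, stood at 79.4, 85.1, 130.1 and 81.2 CPM in the NX, NY, QT and RM controls, and 93.2, 83.6, 80.9 and 85.4 CPM in the knockouts in the same order. The other 7 libraries lay between 79.4 and 93.2 CPM, below control QT. Sdhb, the iron-sulfur subunit, had 26.6 ± 9.28 CPM (control) and 22.1 ± 2.82 CPM (knockout; log2 fold change -0.27, SE 0.29). The membrane anchors Sdhc and Sdhd had 52.4 ± 16.03 CPM (control) and 43.8 ± 9.55 CPM (knockout; -0.26, SE 0.27) and 38.1 ± 10.9 CPM (control) and 36.6 ± 20.5 CPM (knockout; -0.05, SE 0.39; SD, n = 4 each).

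Complex III, which hands electrons to cytochrome c, had 6 of 9 genes fitted lower, with a median of -0.22. That median ran from -0.38 without knockout NY to -0.0019 without control NX and knockout QT. Cyc1, its cytochrome c1 subunit (chr15:76343523-76346260, plus strand, GRCm38), stood at 49.2, 68.3, 95.1 and 61.1 CPM in the NX, NY, QT and RM controls, and 58.1, 48.9, 24.5 and 54.8 CPM in the knockouts in the same order. QT was the widest pair, with the control library the highest and the knockout library the lowest of all 8. The log2 fold change was -0.55 (SE 0.29, 95% interval -1.19 to 0.08; unadjusted p = 0.0811 in edgeR), and all 8 libraries held fractions of shared fragments. Uqcrh, a small hinge subunit and the most abundant gene of the complex (329 TPM), had 62.9 ± 17.7 CPM (control) and 53.8 ± 24.7 CPM (knockout; -0.22, SE 0.31). Uqcrq, the next at 195 TPM, had 26.1 ± 18.1 CPM (control) and 26.8 ± 7.24 CPM (knockout; 0.03, SE 0.46). The core proteins differed in sign, with -0.41 for Uqcrc1 and 0.07 for Uqcrc2, and the Rieske iron-sulfur protein Uqcrfs1 was at -0.01 (SE 0.24). The small subunits Uqcr10 and Uqcr11 were at -0.42 (SE 0.50) and -0.45 (SE 0.48). Uqcrb, fitted highest at 0.12 (SE 0.31), overlaps exons of Gm10767 on the other strand.

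Complex IV, cytochrome oxidase, had 7 of 9 tested genes fitted lower, with a median of -0.21. That median was -0.46 without knockout NY, but above 0 without control NX (0.029), without control NX and knockout QT (0.14) and without both NX libraries (0.15). Cox7c (chr13:86044816-86046904, minus strand, GRCm38) stood at 162, 150.1, 74.4 and 81.4 CPM in the NX, NY, QT and RM controls, and 60.0, 142, 86.6 and 117 CPM in the knockouts in the same order. The highest libraries were control NX, control NY and knockout NY, and knockout NX was the lowest. Cox6a1 was also highest in those 3 libraries, at 125, 142, 52.7 and 42.4 CPM in the NX, NY, QT and RM controls, and 79.8, 155, 45.8 and 74.9 CPM in the knockouts in the same order. The log2 fold changes were -0.21 (SE 0.32) for Cox7c and -0.03 (SE 0.42) for Cox6a1. Cox8a, with the smallest p of the complex, had 42.0 ± 16.3 CPM (control) and 31.5 ± 13.6 CPM (knockout; -0.42, SE 0.34), and Cox7b, fitted highest at 0.14 (SE 0.44), had 75.1 ± 33.3 CPM (control) and 82.9 ± 52.3 CPM (knockout). Cox7b and Cox7c held fractions of shared fragments in all 8 libraries. The subunits next to the catalytic core, Cox5a and Cox5b, were at -0.35 (SE 0.34) and -0.35 (SE 0.40). Cox6b1, on the side of cytochrome c, stood at 71.2, 93.3, 30.7 and 29.4 CPM in the NX, NY, QT and RM controls, and 37.3, 84.2, 57.9 and 56.6 CPM in the knockouts in the same order, with the control higher in NX and NY and the knockout higher in QT and RM (0.07, SE 0.38). Cox6c and Cox7a2 were at -0.13 (SE 0.34) and -0.29 (SE 0.39). Cox4i1, the subunit IV gene, falls outside the symbol rule because of its i1 ending and was taken by name from a list of related genes. It had 94.9 ± 32.8 CPM (control) and 77.5 ± 37.9 CPM (knockout; -0.29, SE 0.35), lower in 4 of 4 prefixes by margins from 65.8 against 65.3 CPM (RM) to 116 against 78.7 CPM (NX).

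Complex V, the ATP synthase, had 16 of 17 genes fitted lower, with a median of -0.30. Of the 17, 7 were lower in 4 of 4 prefixes (41.2%, against 8.48% of all tested genes). Both counts include Atp5s and Atp5sl, which are not structural subunits of the ATP synthase. As the genes moved together from library to library, such counts are not counts of independent genes. None of the 17 passed the test. The median ran from -0.57 without knockout NY to 0.040 without control NX and knockout QT, and was -0.079 without control NX. Atp5b (chr10:128083273-128090391, plus strand, GRCm38) stood at 1002, 963, 1044 and 754 CPM in the NX, NY, QT and RM controls, and 1155, 938, 776 and 612 CPM in the knockouts in the same order. Its highest library was knockout NX and its lowest knockout RM, and the log2 fold change was -0.11 (SE 0.23, 95% interval -0.62 to 0.39). Atp5a1, the alpha subunit that alternates with Atp5b in the catalytic head, had 283 ± 77.8 CPM (control) and 222 ± 70.3 CPM (knockout; -0.35, SE 0.27). The central stalk genes Atp5c1 (gamma), Atp5d (delta) and Atp5e (epsilon) were at -0.24 (SE 0.25), -0.32 (SE 0.31) and -0.42 (SE 0.53). Atp5e, whose promoter is printed above, stood at 29.8, 22.9, 9.71 and 9.79 CPM in the NX, NY, QT and RM controls, and 10.3, 28.2, 4.41 and 10.96 CPM in the knockouts in the same order, so its widest gap was in NX. The peripheral stalk genes Atp5o (OSCP), Atp5f1 (subunit b) and Atp5h (subunit d) were at -0.30 (SE 0.32), -0.09 (SE 0.27) and -0.17 (SE 0.36). The membrane subunits Atp5k (e), Atp5j2 (f) and Atp5l (g) were at -0.33 (SE 0.56), -0.30 (SE 0.39) and -0.25 (SE 0.50). Atp5j, a subunit of the peripheral stalk and the second most abundant gene of the complex (351 TPM), had 69.0 ± 28.7 CPM (control) and 58.5 ± 19.8 CPM (knockout; -0.24, SE 0.32); it lies head to head with Gabpa, whose exons overlap it on the other strand. Atp5s had 5.57, 3.91, 4.05 and 7.62 CPM in the NX, NY, QT and RM controls, and 3.81, 3.64, 2.58 and 3.65 CPM in the knockouts in the same order, so that the highest knockout library lay just under the lowest control library (-0.62, SE 0.46). Atp5sl was fitted lower still (-0.82, SE 0.51), at 4.98 ± 1.43 CPM (control) and 2.81 ± 1.23 CPM (knockout).

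The paralogs Atp5g1, Atp5g2 and Atp5g3 encode the same mature c subunit of the rotor ring with different import sequences. Atp5g3 (chr2:73908447-73911326, minus strand, GRCm38) had the smallest p of the complex, at 70.0, 62.7, 64.8 and 46.6 CPM in the NX, NY, QT and RM controls, and 52.5, 55.9, 39.1 and 25.7 CPM in the knockouts in the same order. Control RM lay among the knockout libraries, and the other 3 control libraries lay above them all (-0.49, SE 0.26, 95% interval -1.06 to 0.07; unadjusted p = 0.0825 in edgeR). Atp5g2 was the one complex V gene fitted higher (0.13, SE 0.47), and Atp5g1 was at -0.34 (SE 0.48). Of the summed TPM of the trio, Atp5g2 held 29.8% ± 8.09 in control and 41.2% ± 4.42 in knockout libraries (SD, n = 4 each). Atp5g3 held 40.7% ± 13.5 and 31.7% ± 6.15, and Atp5g1 29.5% ± 7.59 and 27.0% ± 6.02. The shares of Atp5g2 overlapped, with control NY at 38.3% and knockout NX at 35.1%, and were not tested.

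**Figure D3:**
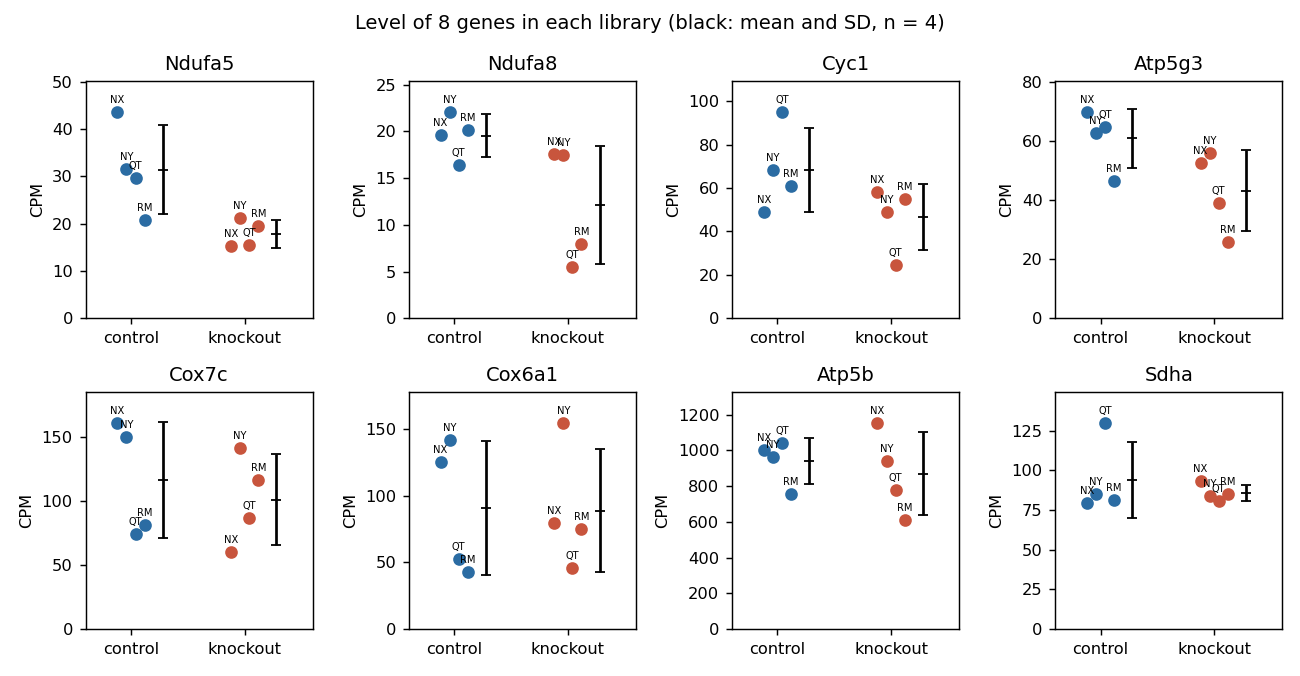
CPM of 8 genes in each library, with the title prefix beside each point and the mean and SD (n = 4) in black. Ndufa5 is lower in 4 of 4 prefixes but overlaps at control RM, Ndufa8 has 2 low knockout libraries, and Cox7c and Cox6a1 are high in the NY libraries of both genotypes.

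Over all 81 genes, the group summed to 3964 ± 906 CPM (control) and 3516 ± 956 CPM (knockout; SD, n = 4 each), a difference smaller than the spread within either genotype. The sums were 4768, 4640, 3591 and 2858 CPM in the NX, NY, QT and RM controls, and 3765, 4765, 2753 and 2782 CPM in the knockouts in the same order. Both NY libraries were high and both RM libraries low, while the NX and QT pairs were split with the knockout lower. By complex the sums in control and knockout were 930 ± 217 and 844 ± 244 CPM (I), 211 ± 39.4 and 188 ± 31.6 (II), 320 ± 57.8 and 274 ± 57.6 (III), 570 ± 245 and 519 ± 224 (IV) and 1933 ± 398 and 1691 ± 473 (V). Complexes III and V were lower in 4 of 4 prefixes, complex II in 3, and complexes I and IV in 2. For complex III the gaps were narrow in NY (375 in control and 355 CPM in knockout) and RM (254 and 244 CPM). Atp5b and Atp5a1, with control means of 941 and 283 CPM, made up most of the complex V sum. For complex V the NY pair was nearly level, at 2163 (control) and 2143 CPM (knockout). Its share of all counts there was slightly higher in the knockout (0.2139% in control and 0.2143% in knockout). The group's share of all counts was highest in control NX (0.530%) and lowest in knockout RM (0.225%). Of the counts, those 5 rows held 11.8% in knockout NX and 36.6% in knockout RM, and their part in these shares was not tested.

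**Figure D4:**
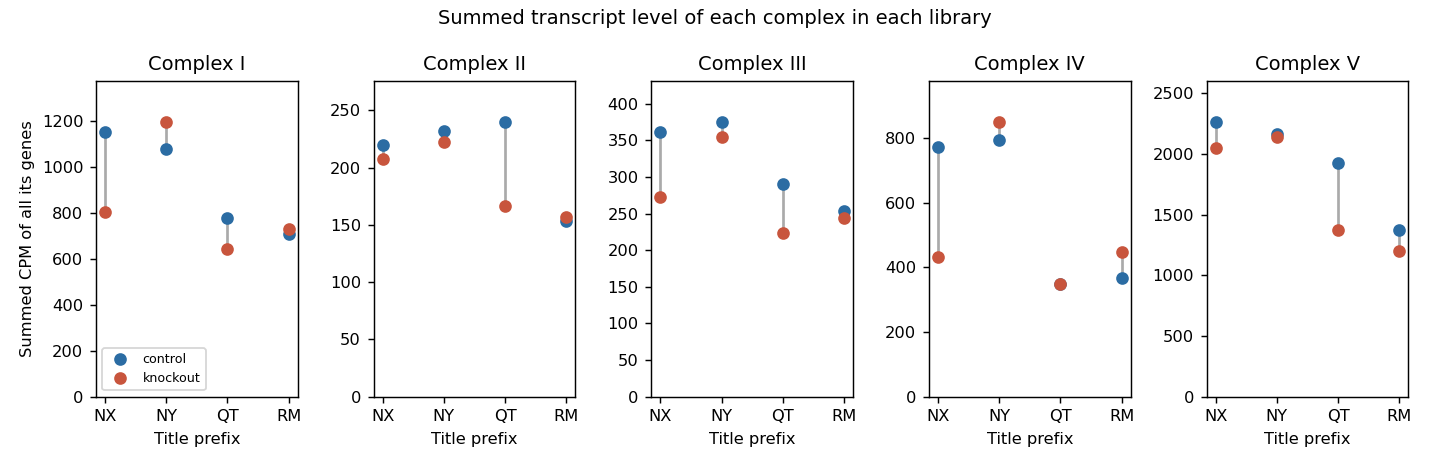
Summed CPM of the genes of each complex in each library, by title prefix, with control in blue, knockout in red and a grey line joining the libraries of 1 prefix. The NY pairs lie close together, the NX and QT pairs have the control higher or level, and for complex IV the QT pair is level (350.0 and 349 CPM).

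The genes moved together from library to library. Of the 75, the number above the gene's own mean over the 8 libraries was 70 in control NX, 69 in control NY and 70 in knockout NY. It was 31 in knockout NX, 21 in control QT, 15 in knockout RM, 11 in control RM and 9 in knockout QT. Transcript length moved with this pattern, and the group is short: 26 of 75 genes (34.7%) had transcripts of at most 550 bases, against 1.65% of all tested genes. In NX the median log2 ratio of knockout to control (CPM plus 1) was -1.07 for these 26 genes, -0.61 for 19 genes above that and up to 800 bases, -0.31 for 14 above that and up to 1300 bases and -0.19 for 16 longer ones. The other tested genes of the same length classes followed the same order in NX, at -0.68, -0.39, -0.15 and 0.02. In RM the shortest class had 0.18 for the group and 0.28 for other genes, so the direction turned. In the classes above 800 bases RM had -0.17 and -0.26 for the group, but 0.03 and 0 for other genes. In NY the medians of the group lay between -0.03 and 0.13, and in QT between -0.46 and -0.04 with the longest genes lowest. Other genes did not share that order in QT, at -0.21, -0.13, -0.14 and -0.01 from the shortest class to the longest. The length that the authors' program subtracts to get an effective length, which follows fragment size, was 214 bases for control NX and 288 for knockout NX, 195 and 187 for NY, 276 and 295 for QT, and 299 and 268 for RM. With library offsets set for each of 20 length classes of about equal gene number, the median log2 fold change of the group was -0.13 (51 of 75 downward). In that fit 0 of the 75 were called. Genes of up to 550 bases were 1.65% of tested genes, and those above that and up to 800 bases 2.54%. Both therefore fell in the shortest of the 20 classes, with 26 and 19 genes of the group. Differences with length among these genes were not removed, so -0.13 is not a value free of length. The part of fragment length in the differences was not tested.

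**Figure D5:**
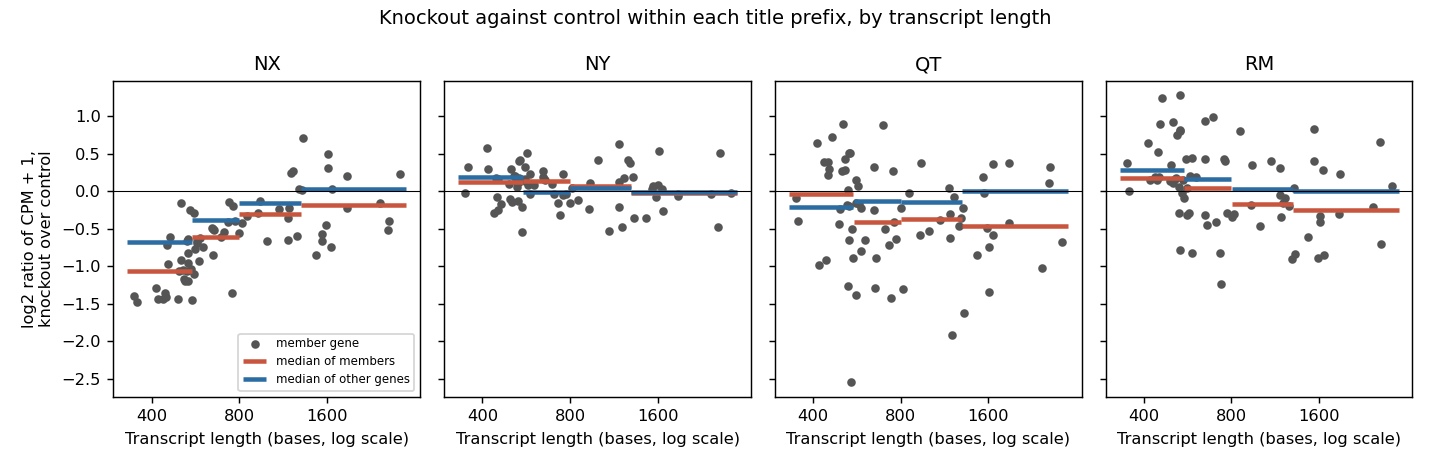
Each point is 1 gene, at its transcript length (log scale) and the log2 ratio of knockout to control CPM plus 1 within a title prefix. Red lines are medians of the group and blue lines medians of other tested genes in 4 length classes, and in NX both drop toward short transcripts, to -1.07 and -0.68.

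Genes around the respiratory chain gave 0 calls in every list. Among subunits and partners outside the symbol rule, 7 of 9 tested were fitted lower (median -0.15), with Cycs, the cytochrome c that links complexes III and IV, at -0.15 (SE 0.22) and Higd1a, a small complex IV partner, at -0.74 (SE 0.41). Assembly factors of complex I had 8 of 15 fitted lower (median -0.03), with Timmdc1 at -0.80 (SE 0.40). Those of complex IV had 13 of 21 (median -0.10), with Pet100 at -1.19 (SE 0.60), and those of complexes II, III and V had 10 of 13 (median -0.17), with Atpaf2 at -0.64 (SE 0.40). Pet100 stood at 30.8 CPM in control NX and 2.99 CPM in knockout NX, the widest of its pairs.

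Regulators of mitochondrial biogenesis had 7 of 16 fitted lower and a median of 0.09. Esrra, the estrogen-related receptor that works with PGC-1α, stood at 14.1, 10.5, 13.9 and 13.8 CPM in the NX, NY, QT and RM controls, and 18.6, 13.1, 23.1 and 25.9 CPM in the knockouts in the same order. It was higher in 4 of 4 prefixes, with a log2 fold change of 0.62 (SE 0.29; unadjusted p = 0.0538 and adjusted p = 1.00 in edgeR), and the genotypes overlapped. The factors whose sequences were searched in the promoters were chosen for that reason: Nrf1 was at 0.19 (SE 0.22), Yy1 at 0.10 (SE 0.26) and Gabpa at 0.27 (SE 0.18). Gabpa had 80.4 ± 6.38 CPM (control) and 97.2 ± 10.1 CPM (knockout) with no overlap, and counts without strand cannot separate it from Atp5j at the exons they share. Ppargc1a, which encodes PGC-1α, was at -0.13 (SE 0.48), and Tfam, which packages mitochondrial DNA, at -0.14 (SE 0.29). Genes with and without the NRF1 sequence had the same median log2 fold change, -0.24 for 17 and -0.24 for 47. For the ETS sequence the medians were -0.24 for 16 and -0.23 for 48, and for the YY1 sequence -0.27 for 8 and -0.23 for 56.

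Among other energy pathways, glycolysis had 17 of 19 genes fitted lower (median -0.25). Of these, 3 had an unadjusted p under 0.05 in edgeR, against 1.91% of all tested genes lower at that p. The summed CPM of the list was higher in knockout NX (1720) than in control NX (1543), and lower in the knockouts of NY, QT and RM. Eno2, the neuronal enolase, stood at 29.8 ± 12.7 CPM (control) and 16.6 ± 2.16 CPM (knockout; -0.85, SE 0.31). The citric acid cycle and pyruvate dehydrogenase had 13 of 21 (median -0.16), and Pdha1, which feeds pyruvate into that cycle, was at 0.66 (SE 0.27), from 36.5 ± 8.61 CPM (control) and 57.8 ± 17.2 CPM (knockout). Mitochondrial import and carrier genes had 18 of 25 (median -0.12), with the phosphate carrier Slc25a3 at -0.35 (SE 0.20). Mitochondrial antioxidant genes had 7 of 10 (median -0.04), with the peroxiredoxin Prdx3 at 0.44 (SE 0.41). Mitochondrial ribosomal protein genes had 44 of 77 (median -0.06), with Mrpl2 at -0.71 (SE 0.46). Genes chosen by the symbols of cytoplasmic ribosomal proteins, which are short and abundant like the subunit genes, had 75 of 83 fitted lower (median -0.21). The smallest p of that list was for Rpl7l1, which entered by its symbol alone and was fitted higher, against the direction of most (0.43, SE 0.31). In their summed CPM the 2 highest libraries were the NY pair, at 18060 and 19505 CPM, and the lowest was knockout QT, at 6992 CPM.

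The genes lie scattered through the genome. In the GENCODE annotation of GRCm38, 80 of the 81 were placed, on 19 chromosomes, with 9 on chromosome 7 and 3 on X. Exons of another gene on the opposite strand overlap 23 of them and exons on the same strand 4, and the library kit as the labels name it does not mark strand. Fractions of shared fragments were in the counts of 10 of the 81 (12.3%, against 41.7% of tested genes; tolerance 0.005 of a count).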

How the data were processed

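RNA sequencing libraries of 4 control and 4 knockout pools of sorted cells were used, with cDNA amplified (NuGEN Ovation) and made into Nextera XT libraries, per the labels' protocols. The submitters' processing notes name Trimmomatic 0.33, RSEM 1.2.22, Bowtie2 and the build mm10. The annotation release is not given in the sources used here. The deposited values are RSEM expected counts, estimates that need not be whole, and TPM per gene. Library totals ran from 5785612 to 14535867 expected counts. There are no molecular identifiers, so floors hold counting error alone.

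Rounded expected counts were fitted in edgeR 4.0.16 under R 4.3.3 (filterByExpr, TMM, quasi-likelihood test with genotype as the single term), which left 14157 of 32543 genes. P-values were adjusted by Benjamini-Hochberg over these genes and called under 0.05. The SE of a log2 fold change is its size divided by the square root of F. P-values measure the spread between pools, and whether pools share litters is not labelled. The procedure was run on simulated counts drawn independently for each gene. They lacked the shared movement of genes between libraries seen here, so that run does not cover it. Alternatives were RLE factors, library totals, 2 other filters, DESeq2 1.42.0, limma-trend (limma 3.58.1) on log2 TPM plus 1 or plus 0.1, the title prefix as a block, and each library left out. The others were chosen after seeing the data: leaving out control NX with knockout QT, both RM or both NX libraries, and centring 20 length classes in each library. Control NX and knockout QT were the control library with the highest and the knockout library with the lowest summed CPM of the group. Leaving out both thus favours upward changes.

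The members, lists and markers were chosen with earlier results of these data known. Named genes are, per complex, the 2 highest by mean TPM and the smallest p in each direction, all of complex II, paralog sets, genes under the filter, Cox4i1, Cycs, Tshz1 and the smallest p of each related list. Other genes, such as Ndufa8, Atp5a1, Atp5s, Gabpa, Nrf1, Yy1, Ppargc1a, Tfam and the core subunits of complexes I and III, were named after their values were seen or for their role. Positions are from GENCODE for GRCm38 and promoters from RefSeq for GRCm38.p6. One member is counted in all totals and is not reported here by itself.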

Additional observations from a re-analysis of the deposited data

Results flagged for a closer look

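Within groups of 4 libraries, 4 of 56 sets of values had 1 library far from the others by Dixon's test. The test flags about 1 in 20 independent sets by chance. These sets share libraries in which the genes moved together, so that rate cannot be applied to them. Of the 4, 3 were the knockout NY library, where Uqcrh stood at 90.7 CPM (others 38.6 to 43.2), Sdhc at 58.0 CPM (others 38.2 to 40.9) and Cox8a at 51.8 CPM (others 22.95 to 26.9). This is also the library in which 70 of 75 genes lay above their own mean. The remaining one was Sdha in control QT, at 130.1 CPM (others 79.4 to 85.1).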

How the results depend on the processing

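The 75 tested genes gave 0 calls under all 20 alternatives, and their median log2 fold change was downward in 19 of them. It turned to 0.085 without control NX and knockout QT, a choice of libraries that itself favours a higher median. It ran from -0.47 without knockout NY to -0.04 without control NX when 1 library was left out. Each of these had the highest group sum of its genotype. Leaving out knockout NY thus favours a lower median, and leaving out control NX a higher one. The count of called genes over the whole table was 5. It was 9 with library totals alone, 19 without the low-count filter, 40 by DESeq2 and 10 with log2 TPM plus 1. It was 0 without control NX and knockout QT, 0 without both RM libraries and 3 without both NX libraries, while 353, 470 and 807 genes had an unadjusted p under 0.05 by edgeR. It ran from 0 to 5 when 1 library was left out (0 without control NX, QT or RM and without knockout NY or QT, 1 without knockout RM), while 328 to 905 genes had an unadjusted p under 0.05 by edgeR.

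In the fit with a replicate block for the prefix, 28 genes were called by edgeR over the whole table (0.198%) and 0 of the 75. Unadjusted p was under 0.05 for 5 of the 75, all lower (Atp5g3, Cox5b, Ndufa5, Ndufa8 and Ndufs6; 3.5% of all tested genes were lower at that p), and Cox6a1 turned to 0.012. Deviations of same-prefix libraries correlated at 0.40 (NX), 0.33 (NY), 0.06 (QT) and 0.49 (RM), and 7 of 8 libraries correlated best with the one of their own prefix, knockout QT with control RM instead. As 1 correlation was under 0.1 and the labels give the prefix no meaning, the block was kept out of the main test, and counts by prefix describe libraries side by side.

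Signs of small changes in single genes were not stable. Without control NX and knockout QT, the log2 fold change was 0.20 for Atp5g1, 0.085 for Atp5j, 0.046 for Cox4i1, 0.38 for Cox6a1, 0.14 for Cox7a2, 0.057 for Cox7c, 0.044 for Cycs and 0.27 for Sdhd. Without both RM libraries it was -0.11 for Cox6b1, 0.093 for Sdhd and -0.18 for Uqcrq. Without both NX libraries it was 0.037 for Atp5j, 0.22 for Cox6a1, 0.15 for Cox7a2 and 0.18 for Cox7c. With library totals alone it was -0.0050 for Cox6b1 and -0.040 for Uqcrq. Cox6a1 was at 0.022 with log2 TPM plus 1, 0.022 with log2 TPM plus 0.1 and 0.13 with centred length classes. When 1 library was left out, the ranges that crossed 0 were -0.28 to 0.032 (Atp5b), -0.30 to 0.45 (Atp5g2), -0.44 to 0.27 (Cox6a1), -0.15 to 0.43 (Cox6b1), -0.61 to 0.029 (Cox7a2), -0.35 to 0.40 (Cox7b), -0.14 to 0.19 (Ndufa12), -0.20 to 0.068 (Sdha) and -0.32 to 0.22 (Sdhd). For Uqcrq the range was -0.24 to 0.36. The choice of control NX and knockout QT favours upward turns, as their group sums were the highest of the controls and the lowest of the knockouts. The cause of the sign turns was not tested. The 3 libraries with the fewest counts (5785612 to 7447946) limit the precision for the lowest genes.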
